A study of Mus musculus with 16 samples.

Results

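Heme and iron handling genes are 9 genes of the mouse (Hmox1, Blvrb, Cd163, Hp, Fth1, Slc40a1, Cp, Trf and Slc11a1) that were chosen by name from the 13733 genes measured in knee joint cells, and all 9 were listed. They were described across 4 groups of 4 mice each: uninjured wildtype mice (WT D0), wildtype mice 7 days after joint injury (WT D7), uninjured Trem2 knockout mice (Trem2-/- D0) and Trem2 knockout mice 7 days after injury (Trem2-/- D7). The mice were male C57BL/6J and C57BL/6J-Trem2em2Adiuj/J, the knockout being germline and so present in every cell, and injury was a single tibial compression that ruptures the anterior cruciate ligament at 10 weeks of age. The labels also give an age of 16 weeks and an extraction protocol that speaks of homogenized joints from control and T1DM mice and of a TruSeq v2 library kit, while the study's methods describe cells released from the joint with collagenase and, in the single-cell protocol to which they refer, lysis of red blood cells, and name a stranded library kit. That single-cell protocol also enriches CD45+ cells on magnetic beads, and it is not stated whether the cells sequenced in bulk passed this step. Marker genes of fibroblasts summed to between 8450 and 153049 in the 16 mice (unit below). Bleeding into the joint was not measured, so the genes are described by what they encode and not as a response to blood.

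Red blood cells that break down release hemoglobin, which is bound by haptoglobin (Hp) and taken up by macrophages through the receptor Cd163. Heme oxygenase 1 (Hmox1) opens the heme ring and frees its iron, biliverdin reductase B (Blvrb) reduces biliverdin and flavins, and the iron is stored in ferritin, of which Fth1 encodes the heavy chain, or leaves the cell through ferroportin (Slc40a1). Ceruloplasmin (Cp) oxidizes the exported iron so that transferrin (Trf) can carry it, and Slc11a1 moves iron and other metals out of the phagosomes of macrophages and neutrophils. C57BL/6 mice are known to carry an allele of Slc11a1 whose protein does not function, so its values here are those of a transcript only.

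Values are TMM-scaled CPM, that is read counts brought to a common library total with a correction for differences in library composition. Each value could be traced back to whole reads, and the libraries held 11567073 to 32867818 reads on the listed genes, so that 3 reads were worth between 0.101 and 0.250. Trem2, the targeted gene, was between 10.7 and 22.5 in WT D7 mice and between 3.42 and 4.84 in Trem2-/- D7 mice, and between 2.51 and 5.61 at WT D0 and 0.948 and 2.68 at Trem2-/- D0. Reads on Trem2 therefore remained in Trem2-/- mice, and the genotypes overlapped at D0. With the thresholds of the study, a gene was called when its unadjusted p from limma was under 0.05 and it differed by more than 25%. The Benjamini-Hochberg adjusted p over the 13173 genes tested is given beside it. The study used limma with voom, whereas the main fit here was limma without voom, which was run as an alternative. Fold changes are on the log2(value + 1) scale. The limma p-values compare each difference with a spread between mice that is pooled over the 4 groups. They and the standard errors therefore do not reflect each group's own spread.

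The members lie on 7 chromosomes of GRCm38 (mm10) in the GENCODE M21 annotation. Hmox1 lies at chr8:75093621-75100589 on the plus strand and Hp at chr8:109575128-109579172 on the minus strand. Slc40a1 lies at chr1:45908068-45926523 on the minus strand and Slc11a1 at chr1:74375195-74386062 on the plus strand. Blvrb (chr7:27447978-27466144), Cd163 (chr6:124304656-124330527), Fth1 (chr19:9980598-9985098) and Cp (chr3:19957054-20009145) are on the plus strand, and Trf (chr9:103204001-103230444) is on the minus strand. Trf shares 55.8% of its stretches of 75 bases with Gm20425, a gene annotated across it on the same strand, so reads of these genes could have been divided in the counting. Fth1 shares 0.882% of such stretches with Gm6977, and exons of Cp overlap Hps3 on the opposite strand. Since the sources name different library kits and no strand setting of the counting, reads of Cp and Hps3 may not be told apart.

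Ferritin, ferroportin, the transferrin receptor and Alas2, an erythroid enzyme of heme synthesis, share a hairpin in their RNA. Iron regulatory proteins bind to it when iron is scarce. In a 5′ UTR this blocks translation, and in the 3′ UTR of the transferrin receptor it protects the RNA from decay, so a transcript level of Fth1 or Slc40a1 need not follow the protein. The hairpin was searched in all annotated transcripts as CNNNNNCAGTGN, where the 5 bases before CAGTGN had to pair with the 5 bases after it. It was found in a UTR of 160 of 21877 coding genes (0.731%) and in 2 of the 9 members, Fth1 and Slc40a1. Of 91 heme and iron genes searched, at least 5 held it in a UTR. Not every chromosome was included in that count. The sequences below are those of the counted genes that have values here. They were read from GENCODE M21 transcripts of GRCm38 on the strand of the gene, 5′ to 3′, with the loop in capitals.
Fth1, 5′ UTR, chr19:9982732-9982760: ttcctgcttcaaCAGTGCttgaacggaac
Slc40a1, 5′ UTR, chr1:45925465-45925493: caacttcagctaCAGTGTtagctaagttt
Alas2, 5′ UTR, across an exon junction on chromosome X: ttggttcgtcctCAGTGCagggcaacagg
Tfrc, 3′ UTR, chr16:32631219-32631247: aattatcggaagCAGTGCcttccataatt
Tfrc, 3′ UTR, chr16:32631598-32631626: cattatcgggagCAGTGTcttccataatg
Tfrc, 3′ UTR, chr16:32631663-32631691: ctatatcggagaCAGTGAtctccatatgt
Tfrc, 3′ UTR, chr16:32631710-32631738: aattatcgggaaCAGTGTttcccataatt
The first 5 letters of the loop were the same in all of them because the search required it, while the stems differed between genes. A match is a description of the letters and was not tested as a binding site.

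Per kilobase of merged exons, Fth1 was the highest member in every group, with a mean level of 1587 at WT D0, and Hmox1 was second with 658. Hp followed with a mean level of 255 per kilobase at WT D0, then Trf with 69.6, Slc11a1 with 47.1, Blvrb with 13.7, Cp with 10.2 and Slc40a1 with 8.58. Cd163 was last in every group, with 1.20 per kilobase at WT D0. At WT D0 the ranges of neighbours in this order overlapped only between Blvrb and Cp and between Cp and Slc40a1. At D7 Fth1 and Hmox1 overlapped in both genotypes, with means per kilobase of 1176 and 653 at WT D7 and of 823 and 692 at Trem2-/- D7. Merged exons include those of every annotated isoform, which lowers the levels per kilobase of genes with many isoforms.

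**Figure D1:**
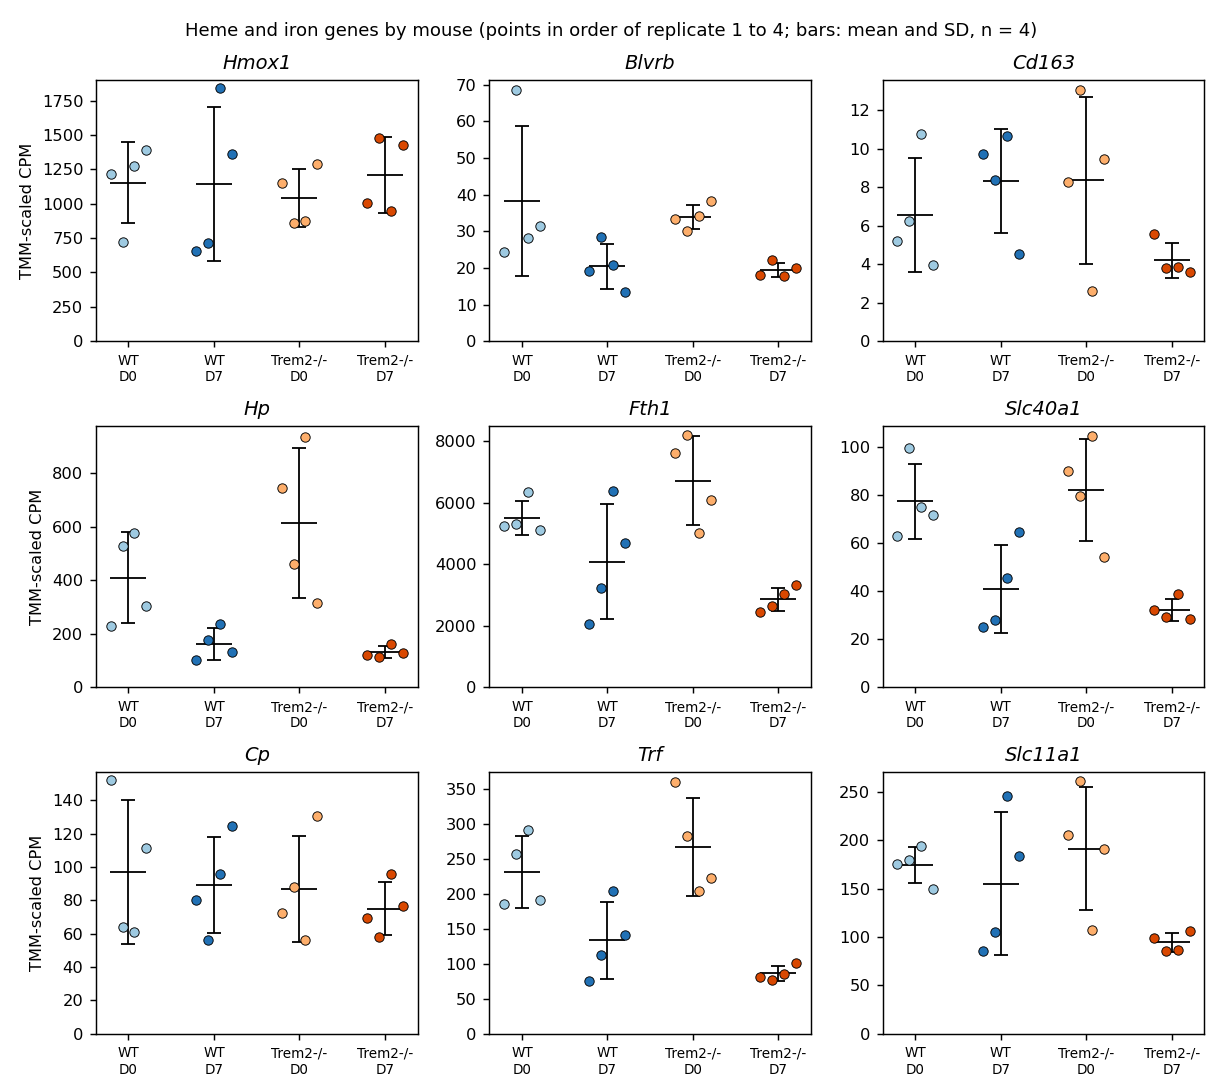
TMM-scaled CPM of the 9 members in each of the 16 mice on linear axes that start at 0, with points in the order of replicates 1 to 4 and bars for the mean and SD (n = 4). In Trem2-/- mice the D7 points of Blvrb, Hp, Fth1, Slc40a1, Trf and Slc11a1 all lie below the D0 points, while those of Hmox1, Cd163 and Cp overlap.

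Most members were lower, not higher, after injury. In WT mice 4 of the 9 were called lower at D7 than at D0 (Blvrb, Slc40a1, Hp and Trf) and 0 were called higher, against 18.2% of all genes tested called lower and 19.3% called higher. All 4 also passed at an adjusted p under 0.05 (limma with Benjamini-Hochberg adjustment), as 12.6% of genes tested did in that direction. The median log2 fold change of the members was -0.55, against -0.04 over all genes tested, and 8 of 9 had a lower mean. No member separated the WT groups fully (0 of 9, against 9.34% of genes tested with every D7 value below every D0 value). For the 4 called members the two-sided exact permutation test gave p = 0.0571 (Slc40a1 and Hp) and p = 0.0857 (Blvrb and Trf).

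In Trem2-/- mice 6 of the 9 members were called lower at D7 than at D0 (Blvrb, Slc40a1, Hp, Trf, Fth1 and Slc11a1) and 0 higher, against 27.9% and 26.5% of genes tested. The same 6 passed at an adjusted p under 0.05, as 27.2% of genes tested did in that direction. For each of them every D7 value was below every D0 value, as for 26.3% of genes tested, and the two-sided exact permutation test gave p = 0.0286, the smallest that 4 mice against 4 allow. The median log2 fold change of the members was -0.95, against -0.04 over all genes tested.

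**Figure D2:**
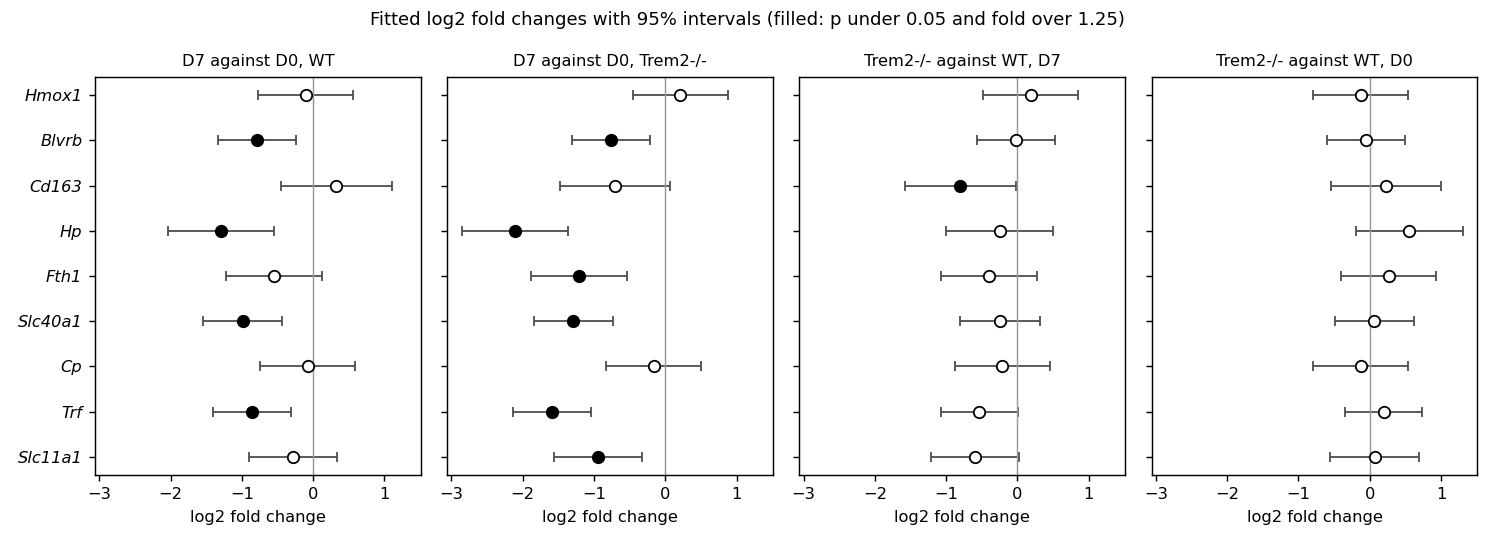
Fitted log2 fold change of each member with its 95% interval in 4 comparisons, with filled circles for members called by the rule above. There are 4 filled circles for injury in WT mice, 6 for injury in Trem2-/- mice, 1 (Cd163) for genotype at D7 and 0 for genotype at D0.

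Hmox1, the enzyme that opens the heme ring, did not pass the test in any comparison. In WT mice it was 1214, 725, 1278 and 1391 at D0 and 656, 717, 1838 and 1363 at D7. In Trem2-/- mice it was 1147, 858, 872 and 1289 at D0 and 1003, 1475, 944 and 1424 at D7. The groups overlapped in every comparison, and the WT D7 mice fell into 2 low and 2 high values. The log2 difference from D0 to D7 was -0.10 in WT mice (standard error, SE, 0.31, 95% interval -0.77 to 0.56) and 0.21 in Trem2-/- mice (SE 0.31, 95% interval -0.46 to 0.88). Both intervals included 0 and reached at least 0.56 on the log2 scale, so a rise of up to that size was not excluded.

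Blvrb, which reduces biliverdin and flavins and is abundant in red blood cells, fell after injury in both genotypes. In WT mice it was 24.4, 68.6, 28.3 and 31.3 at D0 and 19.2, 28.4, 20.7 and 13.5 at D7. In Trem2-/- mice it was 33.3, 30.1, 34.1 and 38.2 at D0 and 18.2, 22.1, 17.9 and 19.9 at D7. WT D0 replicate 2 stood above every other mouse, and without it the log2 fold change in WT mice was -0.47 and stayed called. With all mice the log2 fold change was -0.79 (SE 0.26, limma adjusted p = 0.0334) in WT and -0.77 (SE 0.26, limma adjusted p = 0.0207) in Trem2-/- mice. In the same WT D0 mouse, 6 of the 7 erythroid marker genes analysed were at their highest of the group, Slc4a1 for example at 384 against at most 108 in the other mice. That mouse also had the highest sum of B cell markers (287) and the lowest sum of chondrocyte markers (667) of WT D0. On deviations from the group means over the 16 mice, Pearson's r of Blvrb was 0.46 with the erythroid sum. It was 0.72 with the B cell sum and -0.81 with the chondrocyte sum. The part of these cell types in the Blvrb values was not tested.

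Hp, the carrier of free hemoglobin, had the largest fall of the 9 members in both genotypes. It was 230.2, 526, 577 and 304 at WT D0 and 103, 178, 237 and 133 at WT D7. It was 744, 461, 933 and 314 at Trem2-/- D0 and 119, 116, 163 and 127 at Trem2-/- D7. The Trem2-/- groups lay apart, whereas WT D7 replicate 3 lay just above WT D0 replicate 1. The log2 fold change was -1.30 (SE 0.35, limma adjusted p = 0.0146) in WT mice and -2.11 (SE 0.35, limma adjusted p = 0.000195) in Trem2-/- mice. Haptoglobin is known as a plasma protein of the liver and also as a granule protein of neutrophils. The 10 neutrophil markers (S100a8, S100a9, Retnlg, Ly6g, Mmp8, Mmp9, Camp, Ngp, Csf3r and Cxcr2) summed to between 14109 and 31407 at WT D0, 4451 and 14070 at WT D7, 14632 and 40902 at Trem2-/- D0 and 4318 and 7067 at Trem2-/- D7, and all 10 were called lower after injury in both genotypes. Of the 5 hepatocyte markers only Apoa1 was analysed here, and it stayed between 0.334 and 1.79 in all mice. Across the 16 mice Pearson's r between Hp and the neutrophil sum was 0.98 on the log2 scale, and 0.96 on deviations from the group means. Chondrocyte markers summed to between 667 and 12178 at WT D0 and between 27924 and 70996 at WT D7. In the Trem2-/- groups their sum was between 1002 and 3817 at D0 and between 26119 and 40156 at D7. Values are relative to each library's total. In these bulk samples fewer cells of a type, less RNA per cell and more RNA from other cells therefore cannot be told apart.

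Cd163, the macrophage receptor for haptoglobin and hemoglobin, was the lowest member and the only one called between genotypes after injury. It was 9.75, 8.38, 10.7 and 4.51 at WT D7 and 5.58, 3.79, 3.86 and 3.59 at Trem2-/- D7. WT D7 replicate 4 lay inside the Trem2-/- range, so the groups overlapped. The uninjured WT mice had 5.20, 6.26, 10.8 and 3.98, the uninjured Trem2-/- mice had 8.27, 13.1, 2.62 and 9.50, and these groups overlapped. The log2 fold change of Trem2-/- against WT at D7 was -0.80 (SE 0.36, 95% interval -1.58 to -0.03, adjusted p = 0.668 from limma). For this comparison the two-sided exact permutation test gave p = 0.0571. The call at the unadjusted p was lost with voom and on leaving out any of WT D7 replicates 1, 2 and 3, Trem2-/- D0 replicate 1 or Trem2-/- D7 replicates 2, 3 and 4, where the log2 fold change lay between -0.80 and -0.68. Between D0 and D7 Cd163 changed by 0.32 (SE 0.36) on the log2 scale in WT mice and by -0.71 (SE 0.36) in Trem2-/- mice, and neither passed. Without Trem2-/- D0 replicate 3 the latter was -1.11 and was called, as it was by edgeR (-0.98). The 4 resident macrophage markers (Lyve1, Folr2, Vsig4 and Timd4) summed to between 28.7 and 58.9 at WT D7 and between 24.7 and 32.7 at Trem2-/- D7. Pearson's r of Cd163 with that sum over the 16 mice was 0.79, and 0.89 on deviations from the group means, and the part of these cells in the genotype difference was not tested.

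Fth1, the ferritin heavy chain, was the most abundant member and passed the test for injury in Trem2-/- mice. At WT D0 it was 5240.2, 5320.2, 6339 and 5126, and at WT D7 it was 2049, 3216, 6361 and 4686. At Trem2-/- D0 it was 7603, 8179, 5005 and 6067, and at Trem2-/- D7 it was 2462, 2631, 3019 and 3316. The WT D7 mice spanned from below all Trem2-/- D7 mice to above all WT D0 mice. The log2 fold change was -1.22 (SE 0.32, limma adjusted p = 0.00477) in Trem2-/- mice and -0.55 (SE 0.32, limma adjusted p = 0.193) in WT mice. The WT change was called without WT D7 replicate 3 (-0.81) and under quantile normalization (-1.19), which also moved the Trem2-/- change to -2.28. The difference between those changes, the interaction of genotype and injury, was -0.66 (SE 0.45, 95% interval -1.62 to 0.29) and did not pass, so a larger fall in Trem2-/- mice is not shown.

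Slc40a1, the only known exporter of iron, fell in both genotypes. It was 63.0, 99.4, 75.1 and 71.5 at WT D0 and 25.1, 28.0, 45.6 and 64.7 at WT D7. It was 89.7, 79.5, 104 and 54.1 at Trem2-/- D0 and 32.2, 29.4, 38.6 and 28.3 at Trem2-/- D7. The Trem2-/- groups lay apart, and in WT mice D7 replicate 4 reached into the D0 range. The log2 fold change was -0.98 (SE 0.26, limma adjusted p = 0.0133) in WT and -1.29 (SE 0.26, limma adjusted p = 0.000801) in Trem2-/- mice. Over the 16 mice its r with the neutrophil sum was 0.91, and 0.66 on deviations from the group means, and with the macrophage sum it was 0.27.

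Cp, the ferroxidase that works beside ferroportin, did not pass in any comparison. Its values ran from 60.9 to 152 at WT D0, 56.0 to 125 at WT D7, 56.2 to 130.4 at Trem2-/- D0 and 57.8 to 95.9 at Trem2-/- D7, so all groups overlapped. The log2 difference from D0 to D7 was -0.08 (95% interval -0.75 to 0.59) in WT and -0.16 (95% interval -0.83 to 0.50) in Trem2-/- mice.

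Trf, the iron carrier transferrin, fell in both genotypes. It was 186, 256, 291 and 191 at WT D0 and 74.8, 113, 204 and 141 at WT D7. It was 359, 283, 204 and 222 at Trem2-/- D0 and 81.5, 76.8, 85.7 and 101 at Trem2-/- D7. WT D7 replicate 3 lay inside the WT D0 range, and the Trem2-/- groups lay apart. The log2 fold change was -0.86 (SE 0.25, limma adjusted p = 0.0224) in WT and -1.59 (SE 0.25, limma adjusted p = 0.000148) in Trem2-/- mice. The 6 general leukocyte markers (Ptprc, Coro1a, Laptm5, Cd53, Rac2 and Cd52) summed to between 2093 and 4293 at WT D0, 1214 and 2556 at WT D7, 2653 and 4602 at Trem2-/- D0 and 902 and 1132 at Trem2-/- D7. All 6 were called lower after injury in both genotypes. Over the 16 mice r between Trf and that sum was 0.96, or 0.80 on deviations from the group means. With the sum of 10 macrophage markers r was 0.62, or 0.82 on deviations. Unlike the leukocyte markers, most of these 10 rose with injury. In WT mice 7 passed the rule upward and 0 downward, with a median log2 fold change of 1.66. For the knockout the counts were 6 upward and 2 downward, with a median of 1.14. Their sum averaged 1114 at WT D0 and 1278 at WT D7. It averaged 1277 at Trem2-/- D0 and 923 at Trem2-/- D7. The part of leukocyte share in the fall of Trf was not tested.

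Slc11a1, the phagosomal metal transporter, was called lower after injury in Trem2-/- mice. It was 206, 262, 107 and 191 at Trem2-/- D0 and 99.4, 85.7, 86.7 and 106 at D7, so that the lowest D0 mouse and the highest D7 mouse were nearly level. In WT mice it was 175, 179, 194 and 149 at D0 and 86.0, 105, 246 and 184 at D7. WT D7 replicates 1 and 2 lay below every WT D0 mouse and replicate 3 above every one. The log2 fold change was -0.95 (SE 0.29, limma adjusted p = 0.0130) in Trem2-/- and -0.29 (SE 0.29, limma adjusted p = 0.469) in WT mice, and their difference, the interaction, was -0.66 (95% interval -1.53 to 0.22) and did not pass.

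Between genotypes at D7, 8 of the 9 members had a lower mean in Trem2-/- mice, with a median log2 fold change of -0.25 against 0.01 over all genes tested. Cd163 was the 1 member called lower, against 4.53% of genes tested, and 0 were called higher. At an adjusted p under 0.05, limma called 0 members and 0 of the 13173 genes, of which 958 had an unadjusted p under 0.05. None of the 9 had every Trem2-/- mouse below every WT mouse, as 4.78% of genes tested did. Trf (-0.54, 95% interval -1.08 to 0.01) and Slc11a1 (-0.59, 95% interval -1.21 to 0.03) missed the threshold with limma and passed it with edgeR on the recovered reads, which called 3 members. Without WT D7 replicate 1, Fth1 (-0.69), Slc11a1 (-0.83) and Trf (-0.78) were called. Slc11a1 was also called without WT D7 replicate 2 (-0.74) or Trem2-/- D0 replicate 3 (-0.59), and Trf without Trem2-/- D0 replicate 1 (-0.54) or Trem2-/- D7 replicate 4 (-0.61). Calls over all genes tested moved as well, from 753 to between 479 and 1121 on leaving out a library. Under the other alternatives they lay between 0 and 1366. Of the marker lists, 5 of 6 leukocyte genes, 5 of 5 B cell genes and 3 of 10 macrophage genes were called lower in this comparison, and the macrophage sum was between 1010.4 and 1779 at WT D7 and between 872 and 1049.6 at Trem2-/- D7. Their part in the members' values was not tested.

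At D0 limma called 0 of the 9 members between genotypes, against 2.15% of genes tested called in either direction, and edgeR called 0 as well. The median log2 difference of the members was 0.07, and of all genes tested 385 had an unadjusted p under 0.05 and 0 an adjusted one. Hp had the largest difference (0.56, 95% interval -0.19 to 1.30) and was called without Trem2-/- D0 replicate 4 (0.84), and Cd163 was called without Trem2-/- D0 replicate 3 (0.63). Leaving out a library moved the calls over all genes tested from 283 to between 107 and 1229. For the interaction, limma called 0 members, against 7.79% of genes tested, with 1075 genes at an unadjusted p under 0.05. The members' median interaction was -0.66 against 0.01 over all genes tested, and 7 of 9 were negative. Closest were Trf (-0.73, 95% interval -1.50 to 0.03) and Cd163 (-1.03, 95% interval -2.13 to 0.07), which edgeR called. Leaving out WT D0 replicate 3 called Trf (-0.85) and Cd163 (-1.27), and WT D7 replicate 4 called Cd163 (-1.26). Leaving out WT D7 replicate 1 called Fth1 (-0.95), Slc11a1 (-0.90) and Trf (-0.98), Trem2-/- D0 replicate 3 called Cd163 (-1.43), Slc11a1 (-0.91) and Trf (-0.85), and Trem2-/- D0 replicate 4 called Hp (-1.09). Quantile normalization called Fth1 (-1.09). Over all genes tested the calls for the interaction went from 1026 to between 609 and 2233 on leaving out a library. The comparisons with D0 and between genotypes share mice and are not independent of each other.

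The mice of the WT D7 group differed more from each other in these genes than in most others. The SD of log2 values between WT D7 mice was between 0.42 and 0.72 over the 9 members (median 0.60), against a median of 0.21 over all genes tested and a 90th percentile of 0.42, which 8 of the 9 exceeded. The median SD of the members was 0.19 at Trem2-/- D7 (0.13 over all genes tested), 0.42 at WT D0 (0.27) and 0.40 at Trem2-/- D0 (0.24). All 9 members had a larger SD at WT D7 than at Trem2-/- D7, as 75.6% of genes tested had. Replicate 3 was the highest WT D7 mouse for 6 members (Hmox1, Cd163, Hp, Fth1, Trf and Slc11a1) and replicate 1 the lowest for 6 (Hmox1, Hp, Fth1, Slc40a1, Trf and Slc11a1). The same pair of mice had the highest and lowest leukocyte sums of the group, 2556 and 1214, and replicate 3 had the most reads, 32184431. The part of leukocyte share and of depth in this spread was not tested.

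**Figure D3:**
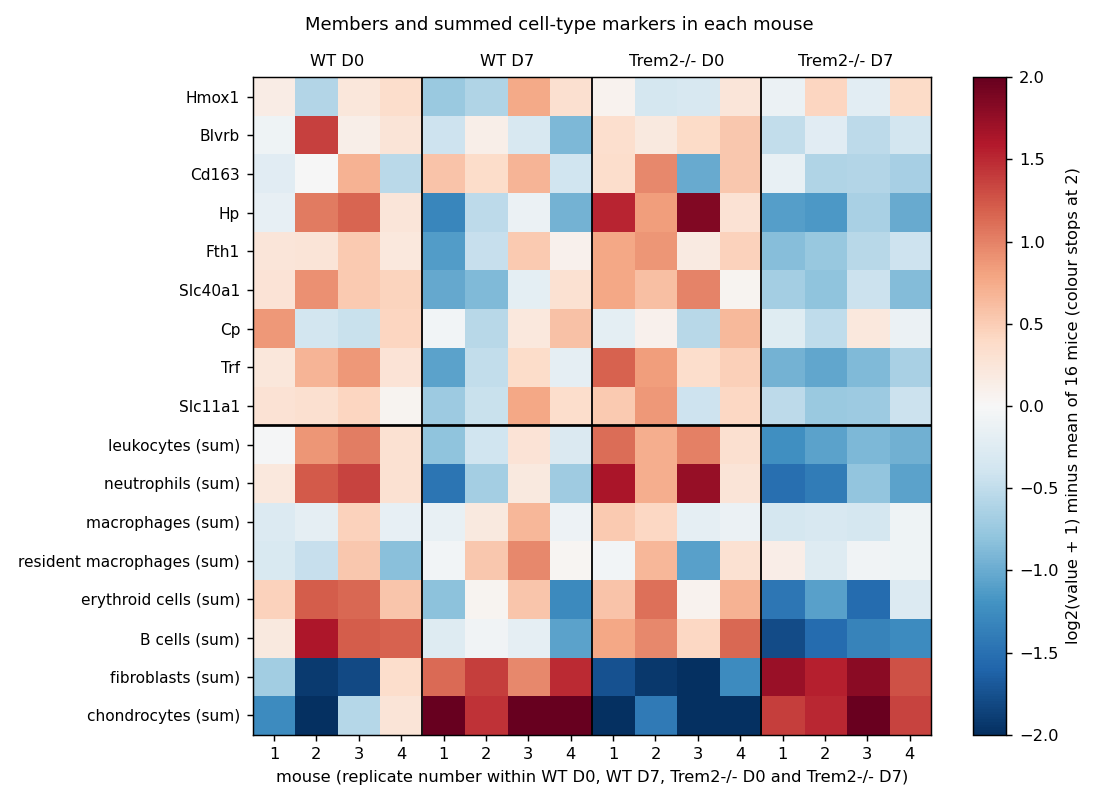
Log2(value + 1) of each member and of 8 summed marker lists in each of the 16 mice, minus the mean over the 16 mice, with colours that stop at 2. In the WT D7 columns mouse 3 is the reddest and mouse 1 among the bluest for most members and for leukocytes and neutrophils, whereas fibroblast and chondrocyte sums are high in all D7 mice.

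Members moved together in part. On deviations from the group means, over the 16 mice, Pearson's r was 0.91 between Fth1 and Trf, 0.91 between Fth1 and Slc11a1, and 0.82 between Slc11a1 and Trf. Hmox1 followed Fth1 less closely (0.66), Cd163 had its highest r within the set with Slc11a1 (0.46), and Blvrb and Hp had negative r with Cp (-0.54 and -0.66). These points share the library and its scaling.

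**Figure D4:**
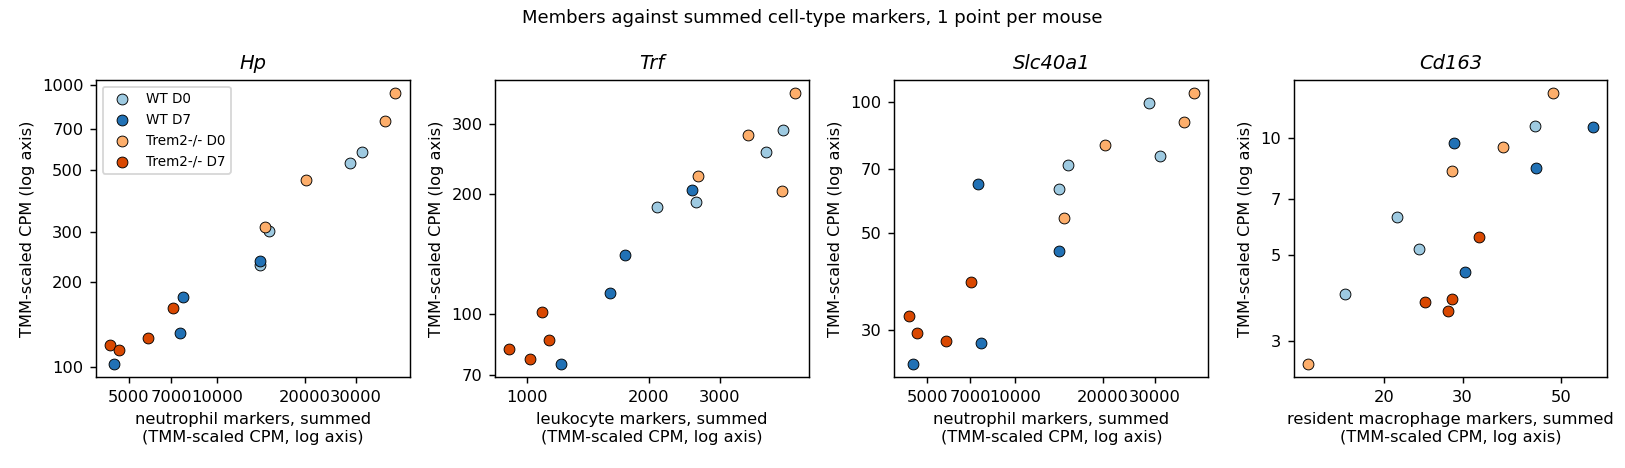
TMM-scaled CPM of Hp, Trf, Slc40a1 and Cd163 against the summed markers of neutrophils, leukocytes, neutrophils and resident macrophages, with 1 point per mouse and both axes on a log scale. Hp follows the neutrophil sum across all 16 mice (r = 0.98), and for Cd163 the Trem2-/- D7 mice sit at the lower edge of the cloud, with 4 values between 3.59 and 5.58.

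The genes whose pattern over the 16 mice was most like that of each member, by Pearson's r on the log2 scale among all genes tested, differed between members. They were Clec4d (r = 0.99), Acod1 (0.99) and Rnf149 (0.99) for Fth1, and Srgn (0.99), Cd53 (0.99) and Clec4e (0.99) for Trf. For Hp they were Pygl, Cyb5r4 and Cfp (0.99 each), for Slc11a1 Entpd1 (0.97), Slc7a11 (0.97) and Smox (0.97), and for Slc40a1 Nlrp12 (0.97), B430306N03Rik (0.96) and Cln3 (0.96). For Blvrb they included 1300017J02Rik and Nxpe2 (0.97 each). For Cd163 they were Fcna (0.85), Tcf7 (0.83) and Klrb1b (0.78), for Hmox1 Nars (0.89), Eif3j1 (0.89) and Dnaja2 (0.87), and for Cp Col6a5 (0.88), Rbbp6 (0.87) and Zdbf2 (0.87). These 3 genes per member were picked as the highest among all genes tested, and under quantile normalization 11 of the 27 were picked again.

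Other genes of the pathway moved in both directions after injury. Of 83 gene symbols in 7 lists, 68 were tested, of which 11 were called higher and 23 lower in WT mice and 15 higher and 27 lower in Trem2-/- mice. Of all genes tested, 19.3% were called higher and 18.2% lower in WT mice and, for Trem2-/- mice, 26.5% and 27.9%. The shares called higher therefore did not exceed those of all genes, while the shares called lower did in both genotypes. The lists' median log2 fold changes were -0.16 and -0.23, against -0.04 over all genes tested in each. Ftl1, Ncoa4 and Hamp were not analysed here.

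Of 14 genes of heme synthesis tested, 9 were called lower in WT mice (18.2% of all genes tested) and 9 in Trem2-/- mice (27.9%), and 0 were called higher. At an adjusted p under 0.05 limma called 6 and 8 of the 14 lower. Alas1, which catalyzes the rate-limiting step in most cells, went from 137 ± 30.4 (SD, n = 4) to 84.4 ± 26.8 in WT and from 183 ± 51.6 to 55.2 ± 5.42 in Trem2-/- mice (log2 fold change -0.72 and -1.68). Alas2, its erythroid counterpart with the hairpin shown above, went from 99.0 ± 27.8 to 53.4 ± 25.0 in WT and from 87.6 ± 16.8 to 28.6 ± 14.6 in Trem2-/- mice (-0.96 and -1.68). The mitochondrial iron importer Slc25a37 (-0.55 and -1.15) and the transporter Abcb10 (-0.78 and -0.74) also fell in both genotypes. Both Alas1 (-0.55) and Alas2 (-0.87) were called lower in Trem2-/- D7 than in WT D7 mice, with adjusted p of 0.624 and 0.615 from limma. Alas2 also belongs to the erythroid list, whose 7 genes analysed were all called lower after injury in both genotypes and summed to between 1379 and 2316 at WT D0, 414 and 1483 at WT D7, 1052 and 2165 at Trem2-/- D0 and 345 and 832 at Trem2-/- D7. The part of erythroid cells in these falls was not tested.

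In iron uptake the changes split by gene. Of 13 genes tested, 5 were called higher and 5 lower in WT mice, and 6 higher and 5 lower in Trem2-/- mice, against 19.3% and 18.2% of all genes tested in WT mice and, for Trem2-/- mice, 26.5% and 27.9%. Slc39a14, which imports iron that is not bound to transferrin, rose from 113 ± 62.4 (SD, n = 4) to 296 ± 47.7 in WT and from 77.9 ± 10.8 to 320.1 ± 35.5 in Trem2-/- mice (log2 fold change 1.58 and 2.03, adjusted p = 0.00380 and 0.000148 from limma). The metalloreductase Steap2 rose by 1.66 and 2.52 on the same scale, and Cybrd1, another iron reductase, by 2.07 in Trem2-/- mice. Tfrc, the transferrin receptor, held 4 matches to the hairpin search in its 3′ UTR. It fell from 199 ± 81.2 to 103 ± 6.87 in WT and from 186 ± 35.2 to 80.8 ± 12.0 in Trem2-/- mice (-0.87 and -1.18). Ltf (-1.56 and -2.46) and Lcn2 (-1.39 and -2.33), which encode iron-binding granule proteins of neutrophils, fell as well. Fibroblast markers summed to between 11567 and 55875 at WT D0, 85293 and 123424 at WT D7, 8450 and 18292 at Trem2-/- D0 and 105905 and 153049 at Trem2-/- D7, and their part in the genes that rose was not tested.

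**Figure D5:**
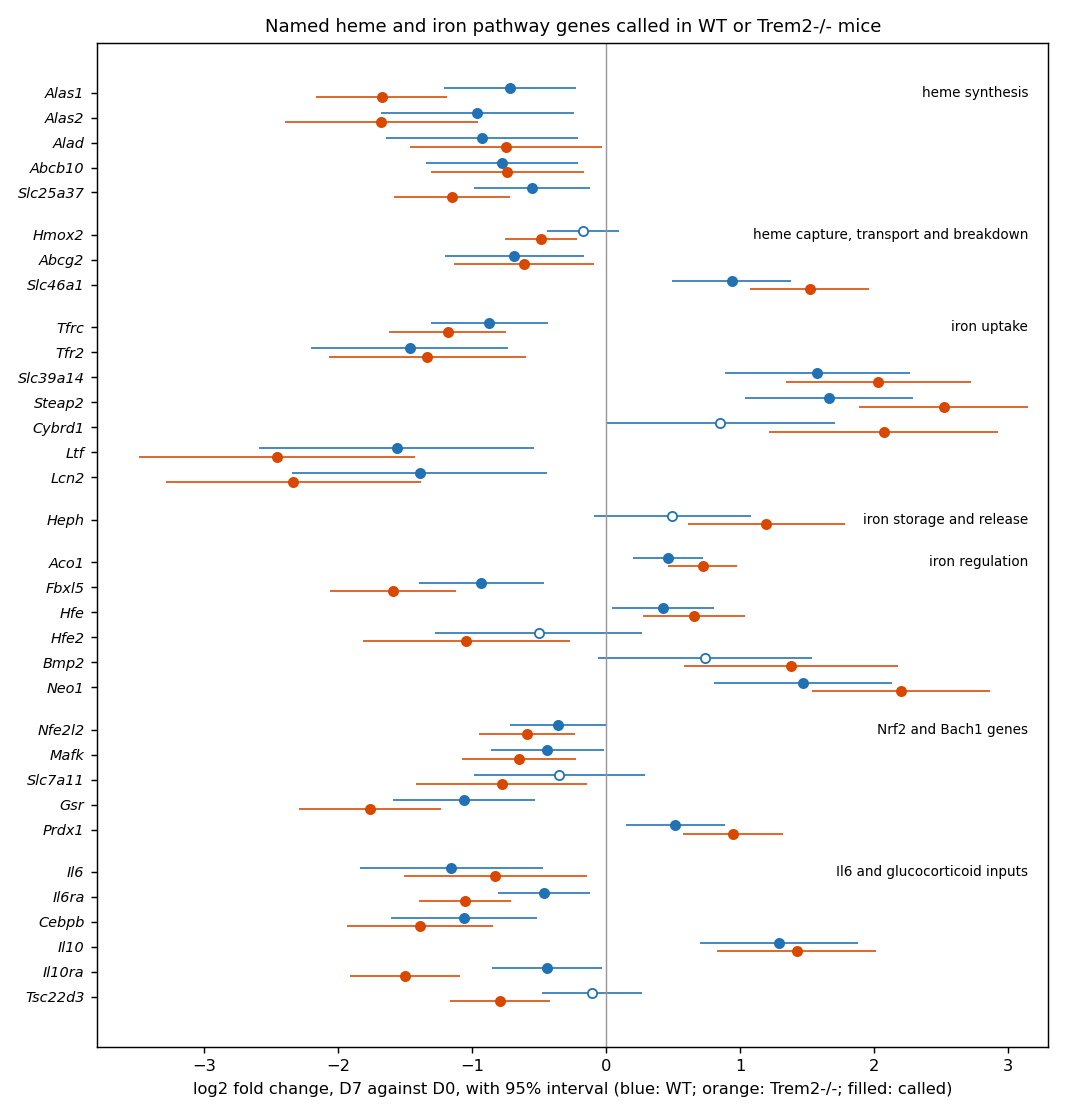
Log2 fold change at D7 against D0, with its 95% interval, in WT mice (blue) and Trem2-/- mice (orange) for the named genes of 7 heme and iron lists called in either genotype, with filled circles for a call. All 5 heme synthesis genes drawn lie below 0, while in iron uptake Slc39a14, Steap2 and Cybrd1 lie above 0 and Tfrc, Tfr2, Ltf and Lcn2 below it.

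Of 6 other genes of heme capture, transport and breakdown tested, 1 was called higher and 1 lower in WT mice and 1 higher and 2 lower in Trem2-/- mice, against 19.3% and 18.2% of all genes tested in WT mice and, for Trem2-/- mice, 26.5% and 27.9%. Abcg2, an exporter of porphyrins, fell in both genotypes (-0.69 and -0.62), Slc46a1, which can carry heme, rose from 1.21 to 3.26 in WT and from 0.781 to 4.12 in Trem2-/- mice (means of 4), and Hmox2, the constitutive heme oxygenase, was called lower in Trem2-/- mice (-0.49, against -0.17 in WT mice, with an interaction of -0.31 that was not called). Blvra, the other biliverdin reductase, averaged 11.1 at WT D0 and 11.6 at WT D7, and 11.4 and 12.0 in the Trem2-/- groups. Slc48a1, a lysosomal heme transporter, averaged 61.1 and 58.8 in the WT groups and 58.4 and 65.7 in the Trem2-/- groups. Neither was called in any comparison, in contrast to Blvrb. Hpx, the plasma carrier of heme, was listed at 0.467 to 0.709 on average and fell under the filter on low values.

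In storage and regulation, Heph, a ferroxidase bound to the membrane, rose in Trem2-/- mice from 5.01 ± 1.92 to 12.4 ± 2.29 (SD, n = 4, log2 fold change 1.19). In WT mice it was 6.44 ± 3.72 and 8.70 ± 0.973 (0.49) and was not called. Its interaction of genotype and injury was 0.70 (95% interval -0.13 to 1.53) and was not called, so a larger rise in Trem2-/- mice is not shown. Of 9 iron regulators tested, 3 were called higher and 1 lower in WT mice and 5 higher and 2 lower in Trem2-/- mice, against the same 19.3%, 18.2%, 26.5% and 27.9% of all genes tested. Neo1, a partner of hemojuvelin, rose by 1.47 and 2.20, and Aco1, iron regulatory protein 1, by 0.46 and 0.72 on the log2 scale. Fbxl5, which marks iron regulatory protein 2 for decay, fell by 0.93 and 1.59.

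Of 13 genes of the Nrf2 and Bach1 list tested, 1 was called higher and 3 lower in WT mice and 1 higher and 4 lower in Trem2-/- mice, where 18.2% and 27.9% of all genes tested were called lower. Bach1, the heme-sensing repressor of Hmox1, was 260.0 ± 27.5 at WT D0, 288 ± 65.6 at WT D7, 278 ± 32.2 at Trem2-/- D0 and 272 ± 10.7 at Trem2-/- D7 (SD, n = 4) and was not called. Nfe2l2, which encodes the activator Nrf2, fell by 0.36 and 0.59. Gsr, glutathione reductase, fell by 1.06 and 1.76, and Prdx1 was the gene that rose (0.52 and 0.95). Among 10 genes of the Il6 and glucocorticoid list, Il6 went from 347 ± 161 to 142 ± 25.1 in WT and from 373 ± 138 to 202 ± 35.4 in Trem2-/- mice (log2 fold change -1.16 and -0.83), and Il10 rose (1.29 and 1.42). Over all 7 lists 4 genes were called lower and 0 higher in Trem2-/- D7 than in WT D7 mice, and at an adjusted p under 0.05 limma called 0. Of all genes tested 4.53% were called lower in this comparison, so 4 of 68 is near the background.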

How the data were processed

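RNA of knee joint cells from 16 mice (4 groups of 4) was sequenced. Per the labels and the study's methods, the authors aligned reads to mm10 with STAR, counted them with featureCounts and scaled them by TMM in edgeR. Versions, annotation and strand setting are not given in the sources used here. The deposited signal values are TMM-scaled CPM of 13733 genes (Fcgr1 was listed 2 times and counted once), and 100% of them came out as whole reads within 0.01. No columns were left unmapped. Replicates of a group had r between 0.94 and 0.99 and differed by more than counting noise.

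Values were tested with limma 3.58.1 in R 4.3.3 (moderated test with trend, 4 groups in one fit) on log2(value + 1), for the 13173 genes that reached 1 CPM in 4 or more libraries. A call needs an unadjusted p under 0.05 and a difference of more than 25%. Adjusted p-values are Benjamini-Hochberg values over all genes tested, and exact permutation tests over mice are two-sided with 70 assignments. Alternatives were edgeR 4.0.16 and voom on the recovered reads, pseudocounts of 0.1 and 5, no filter or a mean of 5 CPM, other scalings, only the groups compared, no trend, a replicate block, a fold change over 1.5, adjusted p, and leaving out each library. Scripts were tested on simulated data.

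The members and the gene lists were chosen with earlier results of these data known. Named genes were the 9 members, up to 4 called genes per list and comparison by size of change, a few genes named in advance by role, and the 3 genes most like each member. A few genes that met this rule are not reported here. Gene positions are those of GENCODE M21 on GRCm38, in which 13428 symbols were found. Intervals are those of the fitted difference, from the spread between mice pooled over the 4 groups.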

Additional observations from a re-analysis of the deposited data

Results flagged for a closer look

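In 3 groups of 4 mice, 1 mouse stood apart for a member, where the gap to the nearest mouse, as a ratio to the group's range, passed the 95% critical value of Dixon's test. Blvrb at WT D0 was 68.6 in replicate 2 against 24.4 to 31.3 in the others (ratio 0.844). Cd163 at Trem2-/- D7 was 5.58 in replicate 1 against 3.59 to 3.86 (ratio 0.861). Fth1 at WT D0 was 6339 in replicate 3 against 5126 to 5320.2 (ratio 0.840). WT D0 replicate 2 also stood apart for Abcb10 (ratio 0.887) and Alad (0.976), genes of heme synthesis, each high in that mouse. Cebpb stood apart in WT D0 replicate 3 (0.855) and Tsc22d3 in Trem2-/- D0 replicate 3 (0.952). Of 188 groups examined in 47 genes 7 stood apart, and about 9 would by chance.

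The change after injury differed between genotypes at an unadjusted p under 0.05 for 5 genes of the pathway lists, by the interaction term of limma. The difference in log2 fold change, Trem2-/- minus WT, was -0.96 for Alas1, 1.22 for Cybrd1, -1.06 for Il10ra, -0.59 for Il6ra and -0.69 for Tsc22d3. None of the 5 passed at an adjusted p under 0.05. Of all genes tested 7.79% were called for the interaction, so 5 of 68 pathway genes is near the background. Cybrd1 (-0.89) and Tsc22d3 (0.53) were called between genotypes at D0 and not at D7. Alas1 and Il6ra were called at D7 and not at D0, and Il10ra at both.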

How the results depend on the processing

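The counts of members called after injury held within 1.5 times under every alternative run, at 4 to 5 in WT and 6 to 7 in Trem2-/- mice when each library was left out. Between genotypes at D7 the main count of 1 became 3 with edgeR, 0 with voom, 0 at an adjusted p under 0.05 and 0 to 3 on leaving out a library. At D0 it was 0 to 1 on leaving out a library. For the interaction the main count of 0 became 1 under quantile normalization, 2 with edgeR and 0 to 3 on leaving out a library. Members whose groups did not overlap numbered 1 under quantile normalization and 0 to 3 on leaving out a library for injury in WT mice, and 0 to 1 for genotype at D7. Pathway genes called after injury in WT mice went from 34 to 22 at a fold change over 1.5. At D7 between genotypes, 4 became 11 with only the groups compared, 2 at a fold change over 1.5, 0 at an adjusted p under 0.05 and 1 to 7 on leaving out a library. At D0, 3 became 8 with edgeR, 1 at a fold change over 1.5, 0 at an adjusted p and 1 to 16 on leaving out a library, 16 being without WT D0 replicate 2. For the interaction 5 became 0 at an adjusted p and 4 to 17 on leaving out a library, 17 again without WT D0 replicate 2. Calls over all genes tested moved too on leaving out a library. They were 107 to 1229 at D0 (main count 283) and 609 to 2233 for the interaction (main count 1026). The cause was not tested. Fits for the pathway genes, overlap and likeness were added after seeing the data.

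Same-numbered mice did not deviate together (r between -0.51 and 0.41 in 24 pairs, 11 over 0.1), so the numbers were not taken as a pairing. With the replicate block 0 members were called between genotypes at D7 and 1 for the interaction, and 8 pathway genes for the interaction.

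On leaving out a library the sign turned for these uncalled log2 differences. For injury they ranged from -0.37 to 0.12 for Hmox1 and -0.27 to 0.17 for Cp in WT, and -0.35 to 0.0531 for Cp in Trem2-/- mice. For genotype at D7 they ranged from -0.0341 to 0.46 for Hmox1, -0.20 to 0.14 for Blvrb and -0.44 to 0.00578 for Slc40a1. At D0 they ranged from -0.22 to 0.27 for Blvrb, -0.0641 to 0.25 for Slc40a1, -0.0210 to 0.63 for Cd163, -0.10 to 0.32 for Slc11a1 and -0.34 to 0.12 for Cp. For the interaction they ranged from -0.29 to 0.19 for Blvrb and -0.33 to 0.13 for Cp.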
